A study of Homo sapiens with 10 samples.

Results

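The zinc finger genes of chromosome band 19p13.2 were examined in HCT116 cells and in their DNMT1 KO derivative. Members were all genes of the count tables whose chromosome is 19, whose smallest start lies between 6.9 and 13 Mb on hg38, and whose symbol begins with ZNF or ZFP followed by a digit. The rule itself uses position and symbol and no expression value, although it was written with earlier results of these data known. The rule found 49 members among the 58884 genes counted, while 316 other genes start in the same window. Of the members, 42 are protein-coding and 7 are antisense RNAs, other long non-coding RNAs or transcribed pseudogenes.

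RNA-seq of polyadenylated RNA was compared between 6 libraries of HCT116, a human colorectal carcinoma line labelled WT, and 4 libraries of DNMT1 KO cells, a published derivative of the same line with a disrupted gene of the maintenance DNA methyltransferase. By the study's account the derivative is strictly hypomorphic, since a truncated DNMT1 protein remains. The labels name no treatment for either line. The study describes its replicates as independent cultures, so p-values measure the spread between cultures, and those of 1 derivative line stand for that line and not for DNMT1 loss in general. By the labels both lines are in batch 1 (replicate 1) and in batch 2 (replicates 2 and 3), whereas DNMT1 KO replicate 4 is alone in batch 3 and only HCT116 (replicates 7, 8 and 9) is in batch 4.

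C2H2 zinc finger proteins bind DNA through tandem finger repeats, and in primates many of them also carry a KRAB domain. That domain recruits the corepressor TRIM28, which brings in the H3K9 methyltransferase SETDB1 and HP1 proteins, and many KRAB zinc finger proteins bind and silence transposable elements. Their genes arose by repeated duplication and stand in dense clusters, of which chromosome 19 holds the most. DNMT1 copies CpG methylation onto newly replicated DNA. The comparison of the lines asks which genes of the cluster differ in expression where DNMT1 is reduced.

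HCT116 libraries totalled 35418732 to 85991812 counts, and DNMT1 KO libraries 26700853 to 55732013. Among genes with 1 to 10 counts, even numbers made up 64.4 to 70% in 9 libraries but 39.9% in DNMT1 KO replicate 4, so counts in the 9 may mostly be mate pairs, and counting intervals then are too narrow. Of the targeted gene, the HCT116 libraries held 89.8 to 263 CPM (counts scaled to TMM-adjusted library totals) and the DNMT1 KO libraries held 14.1 to 22.3 CPM (log2 fold change -2.97, edgeR quasi-likelihood adjusted p = 1.74e-05). DNMT1 itself starts in the window, at chr19:10133345-10231286. Markers of other cell states differed between the lines. Of 8 epithelial genes 7 were tested, 4 were called lower (EPCAM, CDH1, KRT8 and KRT18) and VIL1 was called higher, with summed levels of 2520 to 6130 CPM in HCT116 and 645 to 1431 CPM in DNMT1 KO. Of 8 mesenchymal genes 5 were tested and 4 were called higher (VIM, COL3A1, PDGFRB and ZEB1), with summed levels of 12 to 27.5 CPM and 642 to 982 CPM. No gene of these lists was at 0 in all libraries. The part of these differences in the results on zinc finger genes was not tested.

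The promoters of the zinc finger genes that the results turn on are shown first. Each line gives the 250 bases before the RefSeq start site on the sense strand (GRCh38.p14), with CpG dinucleotides, the substrate of DNMT1, in capitals. ZNF441, ZNF440, ZNF700 and ZNF136 were nearly silent in DNMT1 KO cells, and ZNF823 and ZNF44 are the expressed members on either side of them. ZNF266 was nearly silent as well, and ZNF561 is an expressed member of the same stretch of the chromosome.
ZNF823: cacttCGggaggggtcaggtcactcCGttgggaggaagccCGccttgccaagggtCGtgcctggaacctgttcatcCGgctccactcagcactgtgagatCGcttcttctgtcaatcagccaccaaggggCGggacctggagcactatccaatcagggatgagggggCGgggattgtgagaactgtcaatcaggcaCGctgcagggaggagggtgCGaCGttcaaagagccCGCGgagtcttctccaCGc
ZNF441: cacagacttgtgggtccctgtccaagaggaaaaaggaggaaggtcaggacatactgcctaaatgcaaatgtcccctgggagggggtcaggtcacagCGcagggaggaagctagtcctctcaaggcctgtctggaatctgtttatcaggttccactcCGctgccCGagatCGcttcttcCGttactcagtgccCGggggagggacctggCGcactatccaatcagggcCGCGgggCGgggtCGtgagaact
ZNF440: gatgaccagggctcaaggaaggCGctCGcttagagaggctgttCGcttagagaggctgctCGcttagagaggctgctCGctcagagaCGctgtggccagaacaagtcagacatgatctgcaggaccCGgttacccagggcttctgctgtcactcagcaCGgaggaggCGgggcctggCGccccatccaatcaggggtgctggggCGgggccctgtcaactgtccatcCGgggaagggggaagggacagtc
ZNF700: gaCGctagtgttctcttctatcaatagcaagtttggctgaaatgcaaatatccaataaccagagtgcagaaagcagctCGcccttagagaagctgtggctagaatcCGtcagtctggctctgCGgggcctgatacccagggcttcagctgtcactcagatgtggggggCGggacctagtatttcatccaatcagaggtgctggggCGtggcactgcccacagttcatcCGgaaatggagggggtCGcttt
ZNF136: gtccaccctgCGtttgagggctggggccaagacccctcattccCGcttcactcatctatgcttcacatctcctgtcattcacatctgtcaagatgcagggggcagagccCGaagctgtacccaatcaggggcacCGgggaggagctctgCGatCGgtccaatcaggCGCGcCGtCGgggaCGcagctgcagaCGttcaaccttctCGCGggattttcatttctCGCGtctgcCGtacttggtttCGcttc
ZNF44: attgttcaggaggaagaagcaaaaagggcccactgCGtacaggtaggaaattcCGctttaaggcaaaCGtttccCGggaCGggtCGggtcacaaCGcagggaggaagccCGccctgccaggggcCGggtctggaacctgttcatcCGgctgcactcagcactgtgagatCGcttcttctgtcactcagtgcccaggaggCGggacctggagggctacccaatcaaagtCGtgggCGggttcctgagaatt
ZNF266: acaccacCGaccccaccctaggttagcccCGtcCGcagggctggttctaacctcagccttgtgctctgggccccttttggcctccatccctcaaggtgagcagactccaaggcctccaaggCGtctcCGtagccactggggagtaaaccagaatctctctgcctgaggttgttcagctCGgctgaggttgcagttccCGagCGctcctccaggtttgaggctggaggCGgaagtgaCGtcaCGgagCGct
ZNF561: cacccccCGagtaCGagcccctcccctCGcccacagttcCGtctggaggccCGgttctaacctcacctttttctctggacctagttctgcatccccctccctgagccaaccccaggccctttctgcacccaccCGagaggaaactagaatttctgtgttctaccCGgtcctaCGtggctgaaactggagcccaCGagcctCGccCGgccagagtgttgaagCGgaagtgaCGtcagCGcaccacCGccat

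These windows lie at chr19:11738947-11739196 (ZNF823, minus strand), chr19:11766750-11766999 (ZNF441, plus), chr19:11814023-11814272 (ZNF440, plus), chr19:11924857-11925106 (ZNF700, plus), chr19:12162846-12163095 (ZNF136, plus), chr19:12294884-12295133 (ZNF44, minus), chr19:9435574-9435823 (ZNF266, minus) and chr19:9621233-9621482 (ZNF561, minus). They hold 14, 11, 12, 8, 18, 14, 12 and 15 CpG in that order. The nearly silent genes and their expressed neighbours overlap in this number through ZNF136 alone, with 18. The other nearly silent genes hold 8 to 12 and the expressed ones 14 to 15.

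Of the 49 members, 29 had enough counts to be tested and 20 did not. In DNMT1 KO cells 8 of the 29 (27.6%) were called lower, where the background over all 19279 tested genes was 6.49%, and 1 (3.45%) was called higher, against a background of 7.42%. Calls required an adjusted p below 0.05 together with a log2 fold change larger than 1 in size. The other 20 tested members were not called. The median log2 fold change of the 29 was -0.09, close to the -0.07 of all tested genes, and it stayed at -0.09 with ZNF441 set to its bound, whereas the lower quartile was -1.94 against -0.48. Most tested members therefore sat near the median of all genes, and a minority lay far below it. Of the 29 tested members, the same 8 had every DNMT1 KO library below every HCT116 library, where 6.79% of all tested genes did. In 1 tested member every DNMT1 KO library lay above, where 8.4% of all tested genes did so. Fewer cells expressing a gene and less RNA per cell cannot be told apart in such libraries.

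Other gene classes were set beside the members under the same test. Of the 134 tested window genes that are not members, 6 were called lower (4.48%) and 7 higher (5.22%), with a median log2 fold change of 0.01. The 6 include DNMT1, the targeted gene. Among 157 tested ZNF and ZFP genes elsewhere on chromosome 19, 36 were called lower (22.9%), and the median was -0.02. Of the 265 tested ZNF and ZFP genes on other chromosomes, 13 were called lower (4.91%), and the median was 0.15. The share called lower in 19p13.2 thus lay close to that of the other chromosome 19 zinc finger genes and above the other classes. These shares are descriptions, and the differences between classes were not tested.

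**Figure D1:**
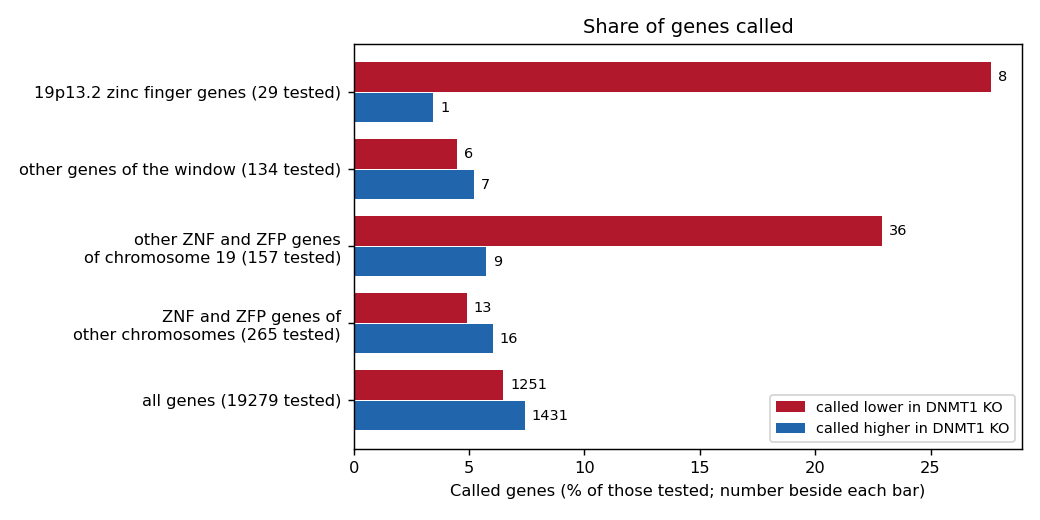
Percent of tested genes called lower (red) or higher (blue) in DNMT1 KO against HCT116 for 5 gene classes, with the number of called genes beside each bar. The 19p13.2 zinc finger genes show 27.6% lower and 3.45% higher, and the other chromosome 19 zinc finger genes 22.9% and 5.73%, against 6.49% and 7.42% of all genes.

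Along the chromosome the members fell into 3 runs, separated by gaps of more than 500 kb. The first, chr19:7069703-7521025, held ZNF557 and ZNF358, both tested and neither called. The second, chr19:8509678-9793180, ran from ZNF414 to ZNF846 with 17 members, of which 12 were tested and 3 called lower (ZNF266, ZNF426 and ZNF846). The third, chr19:11483427-12640098, ran from ZNF653 to ZNF791 with 30 members, of which 15 were tested, 5 called lower (ZNF441, ZNF440, ZNF700, ZNF433-AS1 and ZNF136) and 1 called higher (ZNF490). The DNMT1 gene lies between the second and the third runs, 0.34 Mb after ZNF846 and 1.54 Mb before ZNF441. Of 28 pairs of neighbouring tested members 20 had the same call, and most of these were pairs of uncalled members. How many pairs would agree in another order was not tested. In 5 pairs both genes were called lower, namely the successive genes from ZNF441 to ZNF136 and the pair of ZNF266 and ZNF426.

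**Figure D2:**
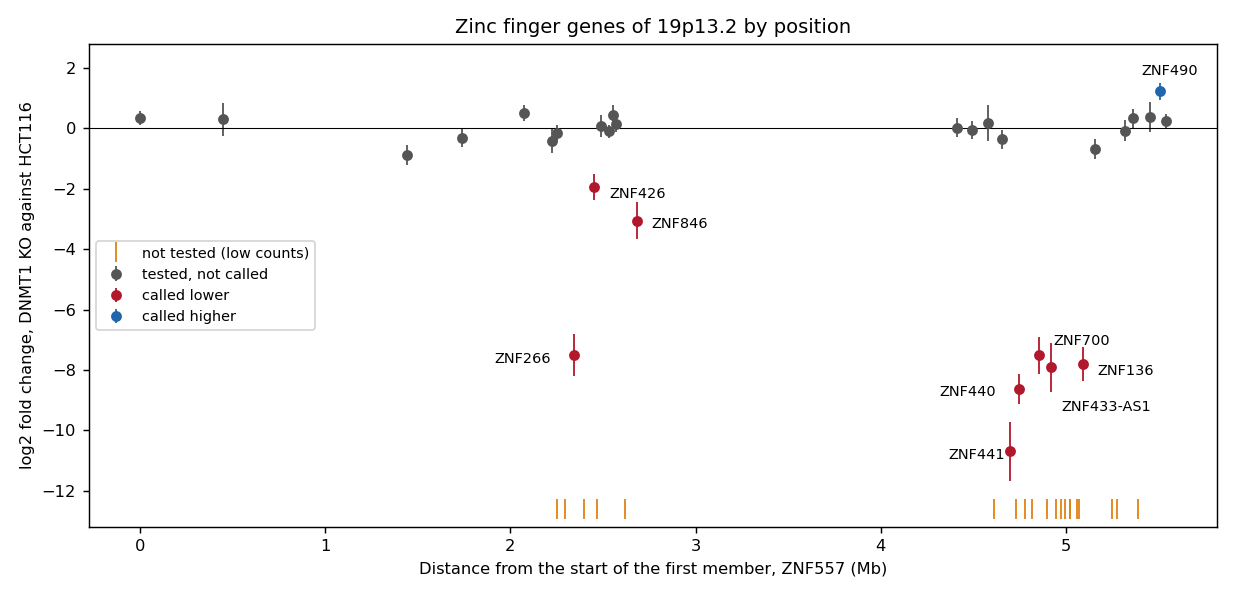
log2 fold change of each tested member (points, bars are standard errors) against its distance in Mb from the start of ZNF557, with the 20 untested members as ticks at the bottom. The 5 lower genes of the third run stand side by side at -7.52 to -10.70 between uncalled members, and the value of ZNF441 depends on the prior count since no DNMT1 KO library held a read of it.

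Near complete loss was found in 6 genes. ZNF440 (chr19:11814284-11835201, plus strand) encodes a protein of 595 residues with 9 C2H2 repeats. It was measured at 15.5, 29.6 and 47.5 CPM as the lowest, median and highest of the HCT116 libraries and at 0.0505, 0.107, 0.0794 and 0.0695 CPM in DNMT1 KO replicates 1 to 4. The groups lay far apart, and the 4 DNMT1 KO libraries held 15 counts of ZNF440 in all. This made a log2 fold change of -8.63 (SE 0.49, adjusted p = 4.34e-08 by the edgeR quasi-likelihood test), and the pooled level was 441-fold lower (95% counting interval 267 to 788). Pooled levels sum counts over libraries, so the large HCT116 libraries of batch 4, which holds no DNMT1 KO library, weigh most in them.

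ZNF441 (chr19:11767000-11784078, plus strand), with 14 repeats, was the only called member without a count in DNMT1 KO cells. HCT116 libraries held 1.67 to 6.66 CPM with a median of 3.41 CPM, 1526 counts in all, and each of the 4 DNMT1 KO libraries held 0. Against a floor of 3 counts over the pooled DNMT1 KO libraries the level pooled over all HCT116 libraries was at least 284-fold lower (adjusted p = 1.15e-05, edgeR quasi-likelihood test). HCT116 averaged 5.6 CPM of ZNF441 in batch 4, which holds no DNMT1 KO library, and 2.31 CPM in batches 1 and 2. A bound from batches 1 and 2 alone would therefore be smaller. ZNF700 (chr19:11925068-11950773, plus strand) had the most repeats of the genes called lower, 17. It ranged from 8.54 to 33.9 CPM in HCT116 around a median of 16.6 CPM, and gave 0.0505, 0.0711, 0.206 and 0.0695 CPM in the DNMT1 KO libraries, none of which came near the HCT116 range. Its log2 fold change was -7.52 (SE 0.61, adjusted p = 7.21e-07 with edgeR), a 202-fold lower pooled level (132 to 326), and -8.20 without DNMT1 KO replicate 3. HCT116 averaged 27.3 CPM of it in batch 4 and 12.6 CPM in batches 1 and 2. Within batches 1 and 2, with batch as a term, the log2 fold change was -6.80. Of the exon bases of ZNF700, 17.4% are shared with an overlapping gene, ENSG00000267179, so part of its reads may have been ambiguous.

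ZNF136 (chr19:12163064-12189871, plus strand), a KRAB zinc finger gene with 13 repeats, held 6.68 to 12.8 CPM in HCT116 with a median of 8.31 CPM. In DNMT1 KO it held 0.0505, 0, 0.0635 and 0.0348 CPM, 7 counts in all. This made a log2 fold change of -7.80 (SE 0.56, adjusted p = 2.85e-07 with edgeR), or 251-fold lower (122 to 626). ZNF433-AS1 (chr19:11987617-12046275, plus strand) is a non-coding RNA antisense to ZNF433. It had 0.891 to 3.13 CPM in HCT116 (median 1.74) and a single count, 0.0178 CPM, in replicate 2 of DNMT1 KO, the other 3 libraries being at 0. Its log2 fold change was -7.92 (SE 0.80, adjusted p = 6.03e-06 with edgeR), and with 1 count the pooled ratio of 343 has an interval of 61.3 to 13568. Without DNMT1 KO replicate 2, which holds that count, the fitted value was -9.59. That value depends on the prior count, since the DNMT1 KO libraries left held no read of it. No strand option is named for the counting, and 8.27% of its exon bases lie opposite another gene's exons, so reads of the 2 strands cannot be told apart there.

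ZNF266 (chr19:9412461-9435571, minus strand) is the gene of this kind in the second run, with 12 repeats. HCT116 libraries gave 13.1 to 31.7 CPM with a median of 21.7 CPM, and DNMT1 KO libraries gave 0, 0.0355, 0.302 and 0.0695 CPM. Replicate 3 held 19 of the 23 DNMT1 KO counts, and even there the level was far below HCT116. The log2 fold change was -7.52 (SE 0.69, adjusted p = 2.64e-06 with edgeR), a 170-fold lower pooled level (113 to 268), and without DNMT1 KO replicate 3 it was -9.23. Summed over these 6 genes, DNMT1 KO libraries held 0.152, 0.231, 0.651 and 0.243 CPM, and HCT116 libraries 48.6 to 126 CPM. Replicate 3 of DNMT1 KO was highest in that sum, owing to ZNF266 and ZNF700. In the DNMT1 KO mean, ZNF440, ZNF433-AS1, ZNF136, ZNF266 and ZNF700 kept 0.238 to 0.498% of their HCT116 mean.

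Lesser decreases were found in ZNF426 and ZNF846, the other lower genes of the second run. ZNF426 (chr19:9523223-9538645, minus strand; 11 repeats) ranged from 2.98 to 6.69 CPM in HCT116 with a median of 3.55 CPM, and read 0.909, 1.33, 1.78 and 0.452 CPM in DNMT1 KO. The groups did not overlap, yet 25.6% of the HCT116 mean remained (log2 fold change -1.94, SE 0.42, adjusted p = 0.00482 with edgeR). ZNF846 (chr19:9751993-9793180, minus strand; 11 repeats) was rare in both lines, at 0.186 to 1.24 CPM in HCT116 and 0.0348 to 0.127 CPM in DNMT1 KO, where it had 17 counts. Its pooled level was 8.4-fold lower (5.14 to 14.6; log2 fold change -3.05, SE 0.62, adjusted p = 0.00296 with edgeR), and it had too few counts to be tested within batches 1 and 2 together.

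**Figure D3:**
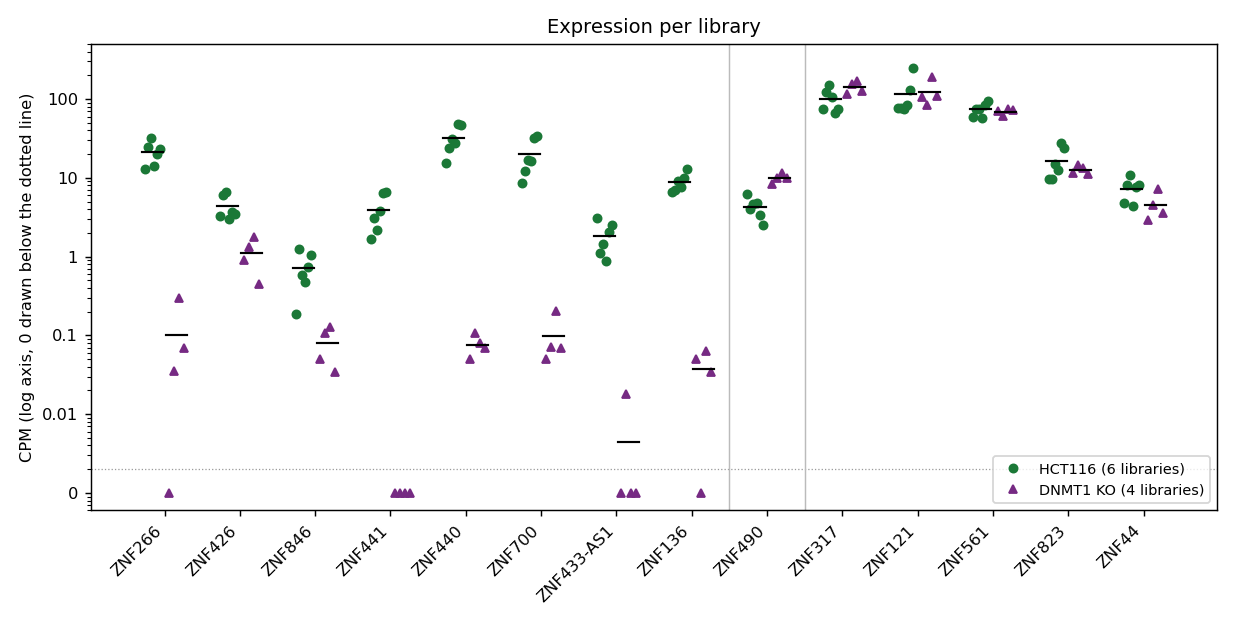
CPM per library on a log axis for 14 members, with HCT116 as green circles (6 libraries), DNMT1 KO as purple triangles (4 libraries) and group means above 0 as black lines. The 8 members left of the first grey line were called lower, ZNF490 was called higher, and the 5 at the right were not called. ZNF441 is at 0 in all 4 DNMT1 KO libraries.

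Tested members next to these genes were expressed in both lines. In the second run, ZNF559 ends 61.3 kb before ZNF266 and ZNF121 begins 21.7 kb after ZNF426. ZNF559 averaged 19.1 ± 5.48 CPM (SD, n = 6) in HCT116 libraries, against 17.2 ± 4.63 CPM (SD, n = 4) in DNMT1 KO. ZNF561 and ZNF562 follow ZNF121, with log2 fold changes of -0.09 (SE 0.21) and 0.15 (SE 0.25), and ZNF266 and ZNF426 therefore lie amid members whose levels did not pass the test. Between ZNF266 and ZNF426 stands ZNF560, which had no count in HCT116 and 5 counts in DNMT1 KO.

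In the third run the lower genes were 5 successive tested members. The stretch they span is described here after its values were seen and given with no test of its own. From the start of ZNF441 to the end of ZNF136, chr19:11767000-12189871, 423 kb hold 16 members. Of these, 5 were tested and all 5 were called lower, and the other 11 were not tested for lack of counts in either line. Together the 31 genes of the stretch, 15 of them no members and none of those tested, held 24950 counts in the 6 HCT116 libraries and 70 counts in the 4 DNMT1 KO libraries. By library this was 36.0 to 104 CPM in HCT116 and 0.253, 0.373, 0.476 and 0.313 CPM in DNMT1 KO.

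The nearest tested members on both sides lay within short distances and were not called, which follows from how the stretch was bounded. ZNF823 lies 28.0 kb before the stretch and read 9.72, 13.7 and 27.4 CPM (lowest, median, highest) in HCT116 and 11.6, 14.6, 13.3 and 11.3 CPM in DNMT1 KO (log2 fold change -0.37, SE 0.32, adjusted p = 0.512 with edgeR). Its DNMT1 KO libraries fell inside the HCT116 range. ZNF44 begins 34.8 kb after the stretch, with 4.42, 7.83 and 11 CPM in HCT116 and 2.91, 4.53, 7.11 and 3.61 CPM in DNMT1 KO (-0.68, SE 0.34, edgeR adjusted p = 0.214). These groups overlapped, although 2 DNMT1 KO libraries lay below every HCT116 library. ZNF441 and ZNF823 are transcribed in opposite directions away from the gap between them, as the strands of their windows show. The gap thus lies between the starts of a nearly silent gene and of an expressed gene. Promoter activity was not measured.

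The 6 uncalled members with the highest level per kb of exon were ZNF317, ZNF121, ZNF358, ZNF627, ZNF561 and ZNF791. ZNF317, the highest member per kb in both lines, read 66.7, 90.2 and 150 CPM in HCT116 and 117, 156, 167 and 127 CPM in DNMT1 KO (log2 fold change 0.52, SE 0.26, adjusted p = 0.212 with edgeR). ZNF121 read 74.5, 80.2 and 247 CPM in HCT116 and 106, 84.2, 193 and 109 CPM in DNMT1 KO (0.10, SE 0.37, edgeR adjusted p = 0.895). In both genes the groups overlapped, and HCT116 replicate 9 alone set the upper end for ZNF121.

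ZNF358 varied widely, at 5.72, 21.0 and 68.5 CPM in HCT116 and 43.9, 28.3, 24.7 and 31.9 CPM in DNMT1 KO (0.30, SE 0.54, edgeR adjusted p = 0.77). ZNF627 read 31.4, 40.5 and 81.8 CPM in HCT116 and 49.6, 50.6, 46.8 and 40.3 CPM in DNMT1 KO (-0.05, SE 0.29, edgeR adjusted p = 0.929). For both, all DNMT1 KO libraries fell within the HCT116 range. ZNF561 read 58.2, 75.1 and 93.4 CPM in HCT116 and 69.5, 60.5, 75.5 and 72.2 CPM in DNMT1 KO (-0.09, SE 0.21, edgeR adjusted p = 0.818). ZNF791 read 34.8, 48.2 and 53.6 CPM in HCT116 and 43.5, 51.9, 82.1 and 37.2 CPM in DNMT1 KO (0.24, SE 0.25, edgeR adjusted p = 0.585). DNMT1 KO replicate 3 was above the HCT116 range for ZNF791, and the other 3 lay inside it.

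Over all 20 uncalled members the log2 fold change ranged from -0.87 (ZNF414, edgeR adjusted p = 0.0897) to 0.52 (ZNF317). It was above 0 in 11 and below 0 in 9, with a median of 0.06, and 17 were within 0.5 of 0. Standard errors of 0.21 to 0.59 mean that differences of this size were not resolved, which does not show that levels were equal. ZNF561-AS1 shares 61.4% of its exon bases with ZNF562 on the opposite strand, ZNF887P is a transcribed pseudogene, and their values (0.46 and 0.19) are uncertain for that reason.

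**Figure D4:**
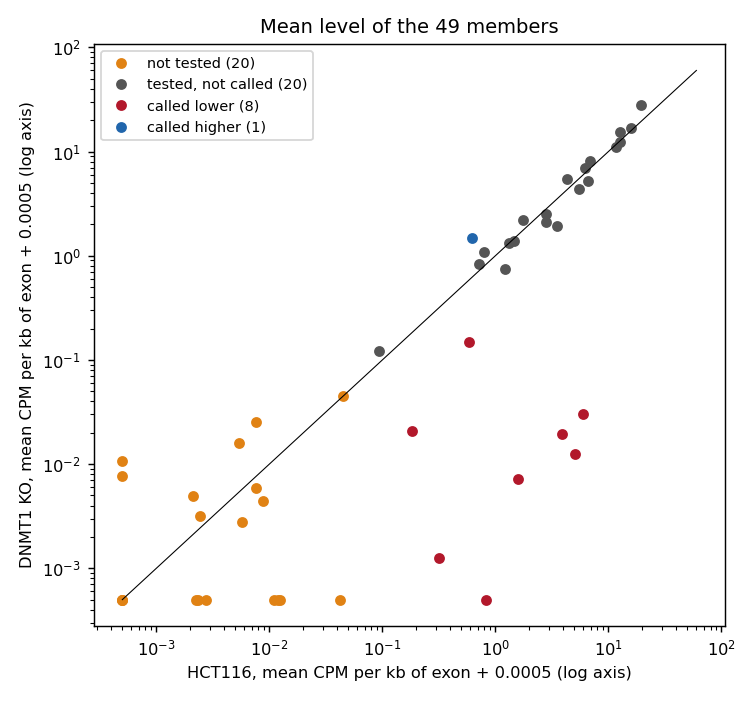
Mean level of each of the 49 members in DNMT1 KO against HCT116, in CPM per kb of exon plus 0.0005 on log axes, with the line of equality. The 8 members called lower lie below the line, from 0.183 to 6.01 CPM per kb in HCT116, inside the range of the uncalled members (0.0923 to 19.6).

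By level per kb of exon in HCT116, the genes called lower were not the most highly expressed of the 29 tested members. ZNF700 ranked 9, ZNF440 11, ZNF266 13, ZNF136 18, ZNF441 22, ZNF426 26, ZNF433-AS1 27 and ZNF846 28. Uncalled members were found above, among and below them.

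ZNF490 (chr19:12576100-12640098, minus strand; 13 repeats) was the only member called higher. It read 2.50, 4.34 and 6.19 CPM in HCT116 and 8.29, 10.0, 11.4 and 10.0 CPM in DNMT1 KO, with no overlap (log2 fold change 1.23, SE 0.28, adjusted p = 0.00677 with edgeR). Over batches 1 and 2 with batch as a term the value was 1.01 (adjusted p = 0.0643), and the call was lost. Moreover, 51.1% of its exon bases are shared with ENSG00000269693, on the same strand, and how the reads were divided between them was not tested.

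The 20 untested members had at most 0.119 CPM in HCT116 and 0.141 CPM in DNMT1 KO on average. ZNF625-ZNF20, ZNF625 and ZNF442 had no count in any library. A further 7 had counts in HCT116 alone, led by ZNF763 with 46 counts against 0 (at least 8.55-fold lower against the floor of 3 counts), ZNF439 with 26 against 0 and ZNF20 with 14 against 0. ZNF763 had 2 counts in each of HCT116 replicates 1 to 3 and the rest in batch 4. All counts of ZNF439 came from batch 4, which holds no DNMT1 KO library, and 6 of those of ZNF20 came from HCT116 replicate 1, so no fold is given for either. All 3 lie within the stretch from ZNF441 to ZNF136, where other untested members had counts in both lines, at 4 in HCT116 and 3 in DNMT1 KO for ZNF844, 4 and 2 for ZNF491, and 9 and 3 for ZNF433. Their pooled ratios had counting intervals that include 1 (for ZNF433 a 1.67-fold lower level, 0.417 to 9.61), so a change was not detectable at this depth. Of the other genes of the stretch, the processed pseudogene RSL24D1P8 averaged 0.142 CPM in HCT116 and 0.0941 CPM in DNMT1 KO. Counts in DNMT1 KO alone were found for ZNF177 (4 counts) and ZNF560 (5 counts), both in the second run. ZNF709 had 14 counts in HCT116 and 27 in DNMT1 KO, pooled levels of 0.0416 and 0.144 CPM. Every DNMT1 KO library lay above every HCT116 library, though at few counts, and 79.4% of its exon bases are shared with other genes. ZNF559-ZNF177 and ZNF625-ZNF20 are readthrough genes that share 83.8 and 99.9% of their exon bases with other genes, and their counts are uncertain.

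Batch and line are partly confounded, so the contrast was repeated within batches. In batch 2, with 2 libraries a line, the log2 fold change was -10.05 for ZNF441, -8.18 for ZNF440, -7.81 for ZNF136, -7.33 for ZNF266, -6.86 for ZNF433-AS1 and -6.67 for ZNF700 (edgeR adjusted p = 0.000857 to 0.00984). The ZNF441 value depends on the prior count, since neither DNMT1 KO library of batch 2 held a read of it. ZNF426 gave -2.04 in that batch (edgeR adjusted p = 0.0346), ZNF846 -2.94 (0.0574) and ZNF490 1.31 (0.089). In batch 1, with 1 library a line and no test, log2 ratios of CPM + 0.1 were -7.04 for ZNF266, -6.70 for ZNF440, -5.84 for ZNF700, -5.49 for ZNF136, -5.01 for ZNF433-AS1 and -4.15 for ZNF441, all limited by the added 0.1. ZNF426 gave -1.74, ZNF846 -0.92 and ZNF490 0.42. The 8 decreases thus had the same direction in each batch that holds both lines.

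**Figure D5:**
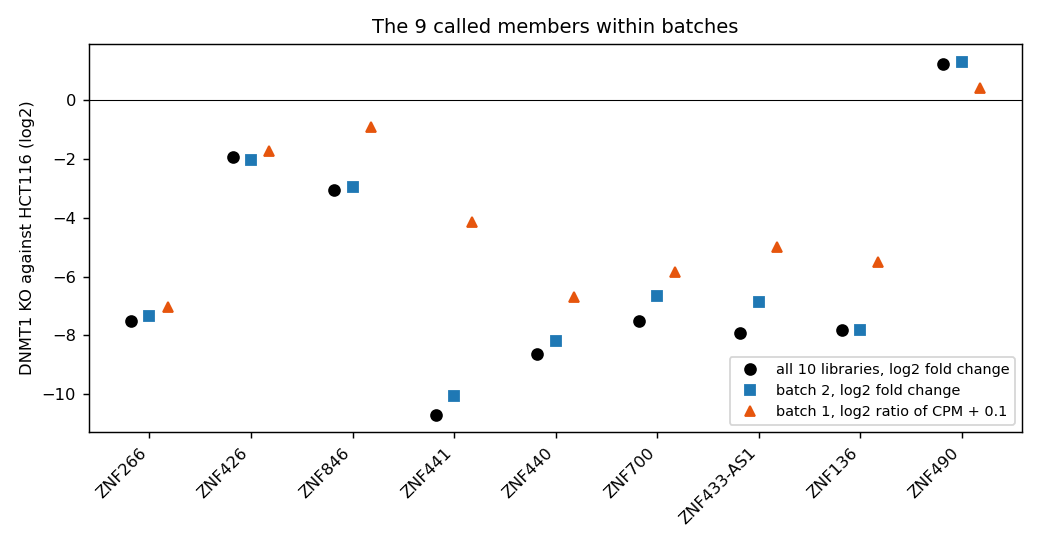
DNMT1 KO against HCT116 on the log2 scale for the 9 called members over all 10 libraries (black circles), in batch 2 (blue squares, 2 libraries a line) and in batch 1 (orange triangles, 1 library a line, ratio of CPM + 0.1). All 3 values of a gene have the same sign. The added 0.1 draws the batch 1 ratios of nearly silent genes toward 0, so their size is not comparable with the fitted values. Fitted values of ZNF441 depend on the prior count, since no DNMT1 KO library held a read of it.

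The spread among HCT116 libraries gave a reference for these changes. Between HCT116 batch 4 and batches 1 and 2, 8.03% of 18656 tested genes were called in either direction. Of the 29 members tested there, 1 was called, ZNF358, which was lower in batch 4 (8.77 against 43.6 CPM, log2 fold change -2.33, SE 0.40, adjusted p = 0.00553 with edgeR). None of the 8 members that were lower in DNMT1 KO was called between HCT116 batches. Even so, ZNF441 (log2 fold change 1.26, edgeR adjusted p = 0.0727) and ZNF700 (1.10, edgeR adjusted p = 0.0773) passed the fold threshold, being higher in batch 4. ZNF440 (0.77), ZNF136 (0.41) and ZNF846 (0.15) were also higher in batch 4, and ZNF426 (-0.70), ZNF266 (-0.29) and ZNF433-AS1 (-0.07) were lower.

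Promoter sequence was compared over members with a RefSeq window of 250 bases before to 50 after the start, which 42 of the 49 had. The median number of CpG in these 300 bases was 18 for the 8 genes called lower (13 to 22), 19 for the 19 other tested members (13 to 34) and 16 for 15 untested members (8 to 28). Over all 35116 RefSeq promoters it was 14. The observed to expected CpG ratio ran from 0.512 to 0.851 in the genes called lower and from 0.472 to 0.912 in the other tested members. Lost and expressed members thus overlapped in CpG content.

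Members of the third run share short promoter words, seen in the windows printed above as tccaatcag. The word CTGATTGGA or its reverse complement TCCAATCAG, which contains the inverted CCAAT box letters ATTGG, was searched on both strands after the sequences had been seen. It was picked as the word of 9 letters shared by the most genes called lower, leaving out words in over 1% of all promoters. Its shares among the genes called lower and among all promoters were thus partly set by that choice. It was found in 20 of 42 member promoters (47.6%) and in 298 of all 35116 promoters (0.849%). It stood in 4 of 8 genes called lower (ZNF441, ZNF440, ZNF700 and ZNF136), in 6 of the 19 other tested members, ZNF823 among them, and in 10 of 15 untested members. In the second run, ACGTCACTTC was among 3 words of 10 letters that were each found in 6 of 14 promoters, the most of any word there, and it is in 0.316% of all promoters. It stood in ZNF266, ZNF560, ZNF121, ZNF561, ZNF561-AS1 and ZNF562, of which 1 was called lower. AGCGGAAGTG, another of the 3, stood in ZNF177, ZNF121, ZNF561, ZNF561-AS1, ZNF562 and ZNF846 and not in ZNF266. These words therefore occur in lost and in expressed members alike. A match is a description of the letters, and members that arose by duplication share sequence.

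The predicted proteins were also alike. Among the 7 protein-coding genes called lower the number of C2H2 repeats ran from 9 to 17 with a median of 12, and among the 19 other tested coding members from 2 to 17 with a median of 10. The 16 untested coding members had 0 to 19 repeats with a median of 10. The 2 proteins with the fewest repeats among tested members were ZNF414 (2) and ZNF653 (3), neither of which was called.

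Genes through which KRAB zinc finger proteins act were read from a list of 22, all tested. HDAC1, a histone deacetylase, was called lower (log2 fold change -1.31, edgeR adjusted p = 0.00133), and 2 were called higher, CBX5, which encodes an HP1 protein (1.09, adjusted p = 0.00483), and ATF7IP2 (1.06, adjusted p = 0.0265). The corepressor gene TRIM28 averaged 952 ± 441 CPM (SD, n = 6) in HCT116 libraries, against 924 ± 264 CPM (SD, n = 4) in DNMT1 KO (log2 fold change -0.04, edgeR adjusted p = 0.95). For SETDB1 the log2 fold change was 0.12 (edgeR adjusted p = 0.768). ATF7IP, whose product is a partner of SETDB1 (0.83, edgeR adjusted p = 0.0244), and MORC2 (0.82, edgeR adjusted p = 0.0339) passed the p threshold but not the fold threshold. The median of the 22 was -0.10, close to that of all tested genes.

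Beyond the zinc finger genes, 13 of the 134 tested window genes were called. FBN3, DNMT1, AP1M2, SLC44A2, RGL3 and HOOK2 were lower. MCEMP1, ANGPTL6, RAB3D, ODAD3, CNN1, BEST2 and ENSG00000267062 were higher. None of the lower ones is listed at 0 in DNMT1 KO, the lowest mean being 0.705 CPM for FBN3.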

How the data were processed

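Each of the 10 libraries has 1 deposited table of raw counts by gene. The authors prepared poly(A)-selected paired-end libraries, trimmed reads (Trim Galore 0.4.1), aligned to hg38 (Bowtie2, not splice-aware), kept mapping qualities of 10 or more and counted exonic reads with featureCounts, with no strand option named. Reads shared by near-identical zinc finger paralogs may thus be lost or misplaced.

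The lines were compared with edgeR 4.0.16 in R 4.3.3 (filterByExpr, TMM, two-sided quasi-likelihood F test, line as the sole term), with Benjamini-Hochberg adjustment over 19279 genes. Standard errors are the size of the log2 fold change over the root of F. Folds of rare genes are pooled CPM ratios with exact conditional 95% intervals, which cover counting error only. The test was checked on simulated data. Alternatives were RLE factors, library totals, other filters, DESeq2 1.42.0, batch terms and subsets, a replicate block, halved counts and each library left out. HCT116 replicates all differed beyond sampling noise.

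Members called with a mean of at least 1 CPM and the 6 uncalled members highest per kb are given by library for DNMT1 KO. For HCT116 their lowest, median and highest values are given. The members and lists were chosen with earlier results of these data known. A further marker list is not reported here. Coordinates are those of the count tables, promoters come from RefSeq, and repeats were found in GENCODE release 44 coding sequences with a C2H2 pattern. Tables of 3 libraries with no sample in the list were not used. The replicate numbers were not treated as pairs, since correlations of deviations were 0.463, -0.199 and 0.375 for replicates 1, 2 and 3.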

Additional observations from a re-analysis of the deposited data

Results flagged for a closer look

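Over the 27 groups of libraries examined for a library far from the others by Dixon's 95% criterion, about 1.35 would be marked by chance, since it marks about 1 in 20, and 3 were. ZNF433-AS1 was at 0.0178 CPM, a single count, in DNMT1 KO replicate 2, while the other 3 DNMT1 KO libraries were at 0. A single count beside libraries at 0 is always marked, so the number by chance does not hold for groups near 0 counts. In DNMT1 KO replicate 3, ZNF700 reached 0.206 CPM, and the other 3 libraries of that line held 0.0505 to 0.0711 CPM. ZNF121 was at 247 CPM in HCT116 replicate 9 against 74.5 to 129 CPM in the other 5 HCT116 libraries.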

How the results depend on the processing

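The count of members called lower was 8 under each other scaling, under DESeq2, with batch as a term, with halved counts and without any single library. It was 9 with no filter on low counts (46 members tested) and 7 in batches 1 and 2 with or without a batch term, in batch 2 alone and in replicates 1 to 3 with the replicate block, where ZNF846 was no longer called or tested. The member called higher, ZNF490, was lost in 5 settings, giving 0 in batches 1 and 2 with and without a batch term, in batch 2 alone, with batch as a term over all libraries and with the replicate block. Window genes that are no members and called lower fell from 6 to 3 with library totals alone, and those called higher rose from 7 to 10, a scaling that moves the median of all genes from -0.07 to 0.14 and the share of higher calls from 53.4 to 66.3%. All 154 alternative values of the 7 named lower genes kept their direction and call.

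Uncalled members changed sign. ZNF358 had log2 fold changes of -0.37 in batches 1 and 2 under a batch term, -0.43 without it, -0.23 in batch 2, -0.37 over all libraries under a batch term and -0.37 with the replicate block. ZNF627 had 0.40, 0.39, 0.27, 0.40 and 0.40 in the same settings and 0.15 with library totals alone, where ZNF561 had 0.11. With single libraries left out, ZNF121 ranged from -0.18 to 0.48, ZNF627 from -0.15 to 0.16 and ZNF791 from -0.018 to 0.38. The cause was not tested. The floor of 3 counts over the pooled DNMT1 KO libraries, 0.016 CPM, limits what can be said of members with few HCT116 counts.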
